A study of Mus musculus with 12 samples.

Results

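NF-kappaB subunits, inhibitors and feedback regulators were followed in mouse embryonic fibroblasts (MEFs) by taking every probe set, the group of short oligonucleotides that reads 1 transcript on an Affymetrix array, that the platform annotation assigns to Nfkb1, Nfkb2, Rela, Relb, Nfkbia, Nfkbie, Tnfaip3 or Birc3. The rule found 15 of the 45101 probe sets, covering 7 of the 8 genes among the 18193 genes named on the array. Nfkb2, Nfkbie, Tnfaip3 and Birc3 had 2 probe sets each, Rela and Relb 1 each, and Nfkbia 5. Nfkb1 was not analysed here. The probe sets of 1 gene share their target and are not replicates of each other.

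Total RNA was measured on 12 arrays, 2 biological replicates in each of 6 groups. The groups were cells in DMSO (the solvent), cells given IFNa (interferon alpha) or IFNg (interferon gamma) for 6 h, and cells given AMN107, alone or followed by an interferon. The last 3 are written AMN107, AMN107-IFNa and AMN107-IFNg. This compound is nilotinib, a small-molecule inhibitor of the ABL tyrosine kinases. The labels give no genotype, strain, dose or length of AMN107 treatment, they do not say whether the 2 replicates came from separate cultures, and all 6 groups were grown in the same medium with fetal bovine serum.

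NF-kappaB is a family of transcription factors that work as dimers. Rela (p65) and Relb carry transactivation domains, and Nfkb1 and Nfkb2 encode precursors that are processed to the p50 and p52 subunits. In resting fibroblasts the dimers are held in the cytoplasm by the I-kappaB proteins, of which Nfkbia encodes I-kappaB alpha and Nfkbie I-kappaB epsilon, until the IKK kinase complex marks the inhibitor for degradation. Nfkb2, Relb, Nfkbia, Nfkbie, Tnfaip3 (A20, a ubiquitin-editing enzyme that dampens the signal) and Birc3 (cIAP2, a ubiquitin ligase at TNF receptors) are themselves known NF-kappaB target genes, so the pathway writes much of its own feedback.

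Promoter letters are shown for Nfkbie and Birc3, the inhibitor and the ligase whose signals differed most with AMN107, beside Nfkbia and Tnfaip3, 2 feedback genes whose signals did not pass the test in any comparison. Each window holds the 250 bases before the annotated start, 5′ to 3′ on the gene's strand, from RefSeq on GRCm38.p6. Capitals mark matches to the kappaB consensus of 10 bases, searched by its name on both strands.
Nfkbie, chr17:45555450-45555699, plus strand: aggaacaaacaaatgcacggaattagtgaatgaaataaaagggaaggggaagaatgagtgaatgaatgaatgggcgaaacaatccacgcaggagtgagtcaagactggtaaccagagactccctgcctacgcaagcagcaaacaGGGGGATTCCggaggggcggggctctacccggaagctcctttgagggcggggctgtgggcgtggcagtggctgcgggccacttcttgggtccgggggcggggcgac
Nfkbia, chr12:55492648-55492897, minus strand: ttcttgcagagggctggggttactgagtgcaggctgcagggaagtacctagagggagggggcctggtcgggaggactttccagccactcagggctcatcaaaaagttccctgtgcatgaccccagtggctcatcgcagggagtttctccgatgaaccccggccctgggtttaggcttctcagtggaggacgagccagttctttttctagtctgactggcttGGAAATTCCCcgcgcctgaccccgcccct
Tnfaip3, chr10:19015411-19015660, minus strand: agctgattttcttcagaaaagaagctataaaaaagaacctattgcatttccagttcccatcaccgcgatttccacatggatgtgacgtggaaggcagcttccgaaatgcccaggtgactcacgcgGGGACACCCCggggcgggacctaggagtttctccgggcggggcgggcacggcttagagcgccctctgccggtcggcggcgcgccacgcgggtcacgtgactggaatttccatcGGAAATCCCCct
Birc3, chr9:7873171-7873420, minus strand: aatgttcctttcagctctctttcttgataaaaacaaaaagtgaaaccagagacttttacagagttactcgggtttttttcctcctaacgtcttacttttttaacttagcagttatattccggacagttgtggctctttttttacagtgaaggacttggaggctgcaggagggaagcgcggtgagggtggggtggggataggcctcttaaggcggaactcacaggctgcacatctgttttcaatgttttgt

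The Nfkbie window held 1 match, GGGGGATTCC, from 106 to 97 bases before the start. The Nfkbia window held GGAAATTCCC from 29 to 20 bases before the start. The Tnfaip3 window shown held GGGACACCCC from 125 to 116 and GGAAATCCCC from 12 to 3 bases before it. The other Tnfaip3 window, chr10:19011964-19012213, is not shown and held no match. No match lay in the Birc3 window, which says only that these letters are absent from this stretch. The promoter table held 9 windows for 6 of the member genes, and 6 of the 9 carried a match, including all 3 windows of Nfkb2. Among all 32851 promoter windows of the same length, 7.25% carried one. A search for a STAT site (TTCNNNGAA, both strands) matched 7.02% of all windows and, among the member windows, only 1 of Nfkb2. The core of an interferon-stimulated response element (GAAANNGAAA, both strands) matched 2.98% of all windows and none of the members'. These matches describe sequence and not binding.

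The arrays were read as fibroblasts. Of 12 fibroblast markers, 8 lay above the array median on all 12 arrays, with Vim between 2786 and 4816, Fn1 between 291 and 663 and Col1a2 between 336 and 534, while Thy1, Lum and Fbln2 were below it on every array. Of 11 macrophage and leukocyte markers, Cd14 (114.2 to 172.3), Cd3e and Csf1r lay above the median on all 12 arrays and Cd68 on 11, while Ptprc, which defines leukocytes, was on none (3.94 to 5.21). Of 7 endothelial markers, only Kdr was above it on all 12, and Pecam1 and Cdh5 were on none, as was the epithelial marker Cdh1. The summed leukocyte signal was 293.4 to 307.6 on the AMN107-IFNg arrays and 321.9 to 370.8 on the others, the summed endothelial signal was 95.65 to 120.9, and the part of these signals in the member differences was not tested. The summed signal of the 6 epithelial markers, of which only Epcam was above the median on every array, was 109.8 to 135 on the AMN107 arrays and 142 to 187 on the others. Its part in the AMN107 differences given here was not tested. The array medians lay between 20.6 and 22.8. IFNa replicate 2 stood apart: its ratio of the 5′ to the 3′ Gapdh control was 0.0252, against 1.07 to 1.16 on the other 11 arrays, and the SD of the log2 difference between the replicates was 0.435 in the IFNa group and 0.131 to 0.157 in the other 5. Member differences in the text that use the IFNa arrays are therefore given with and without that array, and the figures use all 12 arrays. Apart from that array, the control ratios also split by treatment. For Gapdh, no array treated with AMN107 fell below 1.12 and no untreated array exceeded 1.1. For Actin the split was narrower, with a lowest value of 0.798 under the compound and a highest of 0.795 elsewhere. Whether this split bears on the AMN107 differences was not tested. Since bulk RNA was measured, fewer cells of a type and less RNA per cell cannot be told apart.

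Differences are log2 differences of signal plus a pseudocount of 8.66, from limma with 1 mean per group, and folds are on the same scale, which understates the change of dim probe sets. Adjusted p-values are Benjamini-Hochberg values over the 24353 probe sets that lay above the array median on at least 2 arrays, and a call is an adjusted p under 0.05. Of the 15 member probe sets, 14 entered the test. Birc3 1425223_at was below the median on all 12 arrays, between 8.20 and 13.8, and was not tested. Levels of different probe sets cannot be set against each other.

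**Figure D1:**
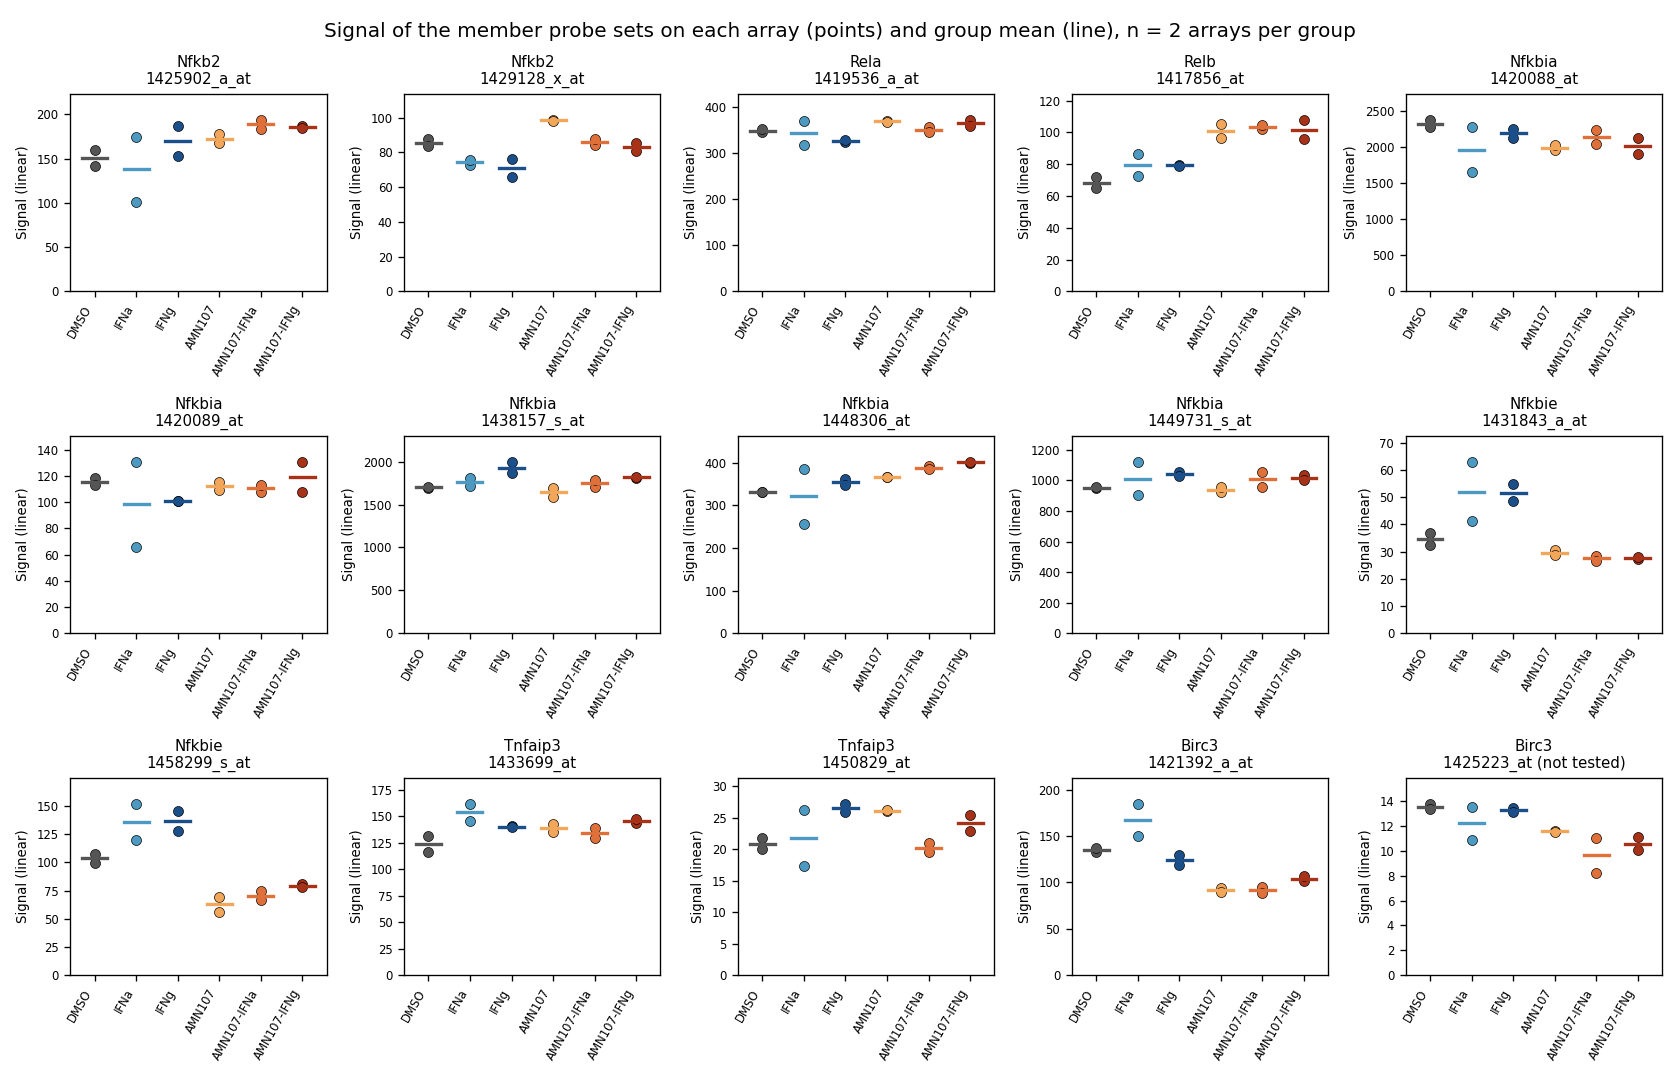
Signal (linear scale, y axis from 0) of the 15 member probe sets on each array, by treatment group. Points are single arrays and lines are group means of 2 arrays. Relb is higher, and both Nfkbie probe sets and Birc3 1421392_a_at are lower, on the 6 arrays with AMN107 than on the 6 without it.

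The members called by AMN107 against DMSO differed in both directions. Relb signal was higher with AMN107 (1.43-fold over DMSO), while Nfkbie (0.637-fold on its brighter probe set) and Birc3 (0.702-fold) were lower. Rela, Nfkb2, Nfkbia and Tnfaip3 passed the test in none of the 10 comparisons of the 12-array fit. On 4 of the 14 tested probe sets, which is 28.6%, the 6 arrays with AMN107 did not overlap the 6 without, against 19.6% of all tested probe sets.

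Relb, the subunit of the alternative NF-kappaB pathway, read 64.9 and 71.7 in DMSO, 86.2 and 72.5 with IFNa and 79.7 and 78.9 with IFNg. With AMN107 it read 96.3 and 106, with AMN107-IFNa 102 and 105, and with AMN107-IFNg 108 and 95.6. Every AMN107 array was above every other array, with medians of 103 and 75.7, and the 3 AMN107 groups overlapped one another. Against DMSO, AMN107 raised Relb by 0.51 ± 0.11 (log2, SE, n = 2 arrays a group; limma adjusted p = 0.00575), a fold of 1.43 with a 95% interval of 1.21 to 1.68. The call was lost without DMSO replicate 1 (adjusted p = 0.0561) and without AMN107 replicate 2 (adjusted p = 0.0567).

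In the presence of interferon the Relb differences were smaller. AMN107-IFNa exceeded IFNa by 0.35 (limma adjusted p = 0.0364), but without IFNa replicate 2 the difference was 0.24 (adjusted p = 0.1), and the call held in 10 of 22 alternatives. The calls without the other arrays are part of that count: adjusted p reached 0.145 without AMN107-IFNa replicate 2, 0.132 without replicate 1 of that group, and lay between 0.0504 and 0.0557 without either array of DMSO, IFNg or AMN107. Between AMN107-IFNg and IFNg the difference of 0.33 missed the threshold (limma adjusted p = 0.0649). The Relb interactions, which ask whether the AMN107 difference depends on the interferon, were -0.16 ± 0.15 for IFNa and -0.18 ± 0.15 for IFNg (log2, SE; limma adjusted p = 0.512 and 0.663), so a dependence on interferon was not detected. Without IFNa replicate 2 the IFNa interaction of Relb was -0.27.

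Nfkb2, which encodes the p52 precursor and partners with Relb, had 2 probe sets. On 1425902_a_at the replicates read 142 and 160.2 in DMSO, 175 and 101 with IFNa, 187 and 153 with IFNg, 177 and 168 with AMN107, 194 and 184 with AMN107-IFNa, and 187 and 184 with AMN107-IFNg. The AMN107 arrays overlapped the others, and the lowest reading was that of IFNa replicate 2. The 1429128_x_at probe set ranged from 66.1 to 98.7, with its 2 highest readings in the AMN107 group (98.7 and 98.0). Their AMN107 differences against DMSO were both 0.18 (limma adjusted p = 0.492 and 0.137).

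Rela, the transactivating subunit of the canonical dimer, was the steadiest of the subunits across the arrays, between 319 and 373. It read 345 and 352 in DMSO, 369 and 319 with IFNa, 323 and 329 with IFNg, 369 and 368 with AMN107, 356 and 347 with AMN107-IFNa, and 373 and 359.6 with AMN107-IFNg. The 6 arrays with AMN107 overlapped the 6 without it, but some pairs of groups did not overlap. Both AMN107 arrays read above both DMSO arrays, and both IFNg arrays read below both DMSO arrays. Both AMN107-IFNg arrays were above both IFNg arrays, and both AMN107-IFNa arrays were below both AMN107 arrays. None of these differences passed the test. The AMN107 difference against DMSO was 0.08, with a 95% interval of -0.12 to 0.28 (log2; limma adjusted p = 0.526). A change of Rela mRNA beyond about that interval was therefore not seen.

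Nfkbia, an inhibitor that is rapidly resynthesised after NF-kappaB activation, was read by 5 probe sets, and none passed the test in any comparison. On 1438157_s_at the arrays read 1691 and 1709.9 in DMSO, 1814 and 1721 with IFNa, 1998 and 1863 with IFNg, 1584 and 1697 with AMN107, 1708 and 1791 with AMN107-IFNa, and 1813 and 1819 with AMN107-IFNg. Both IFNg arrays were above both DMSO arrays, by 0.18 ± 0.07 (log2, SE; limma adjusted p = 0.128). They were also above them on 1448306_at and 1449731_s_at (0.095 and 0.13). On 1420088_at and 1420089_at both IFNg arrays were instead below both DMSO arrays (-0.09 and -0.18). The 5 AMN107 differences against DMSO ran from -0.22 on 1420088_at to 0.14 on 1448306_at, with limma adjusted p between 0.196 and 0.905.

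The Nfkbia probe sets did not move as 1. On 1448306_at, DMSO read 331 on both arrays, IFNg 362 and 347, AMN107 366 and 367, AMN107-IFNa 392 and 386, and AMN107-IFNg 399.7 and 403, while the IFNa arrays read 386 and 257. On 1420088_at, by contrast, both AMN107 arrays (1954 and 2028) were below both DMSO arrays (2276 and 2380.1). On 4 of the 5, IFNa replicate 2 gave the lowest reading of all 12 arrays, for example 66.0 against 130.4 for its partner on 1420089_at.

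Nfkbie had the widest spread across groups of the inhibitors. On 1458299_s_at it read 99.7 and 107 in DMSO, 119.7 and 152 with IFNa and 145 and 127 with IFNg. With AMN107 it read 56.4 and 69.7, with AMN107-IFNa 66.5 and 74.5, and with AMN107-IFNg 80.4 and 78.5. The 6 AMN107 arrays (median 72.1) were all below the 6 others (median 124), whatever the interferon. The suffix _s_at marks probes that may match more than 1 transcript, so this signal may include other RNA.

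On the dimmer 1431843_a_at, Nfkbie read 32.4 and 36.8 in DMSO, 41.1 and 63.0 with IFNa and 54.8 and 48.6 with IFNg. The AMN107 arrays read 30.6 and 28.8, the AMN107-IFNa arrays 28.6 and 26.7, and the AMN107-IFNg arrays 27.3 and 27.9. Again no AMN107 array reached the level of any array without it, but here the interferon groups under AMN107 were no higher than AMN107 alone.

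AMN107 lowered Nfkbie 1458299_s_at against DMSO by -0.65 ± 0.13 (log2, SE; limma adjusted p = 0.00545), a fold of 0.637 with a 95% interval of 0.519 to 0.783, and the call was lost without AMN107 replicate 1 (difference -0.52, adjusted p = 0.0532). The same comparison on 1431843_a_at gave -0.17 ± 0.15 (limma adjusted p = 0.378), so the 2 probe sets differ in whether the call was made. Between AMN107-IFNg and IFNg the 2 probe sets gave -0.72 and -0.73 (limma adjusted p = 0.00615 and 0.00847). Without IFNg replicate 1 these became -0.63 and -0.66 (adjusted p = 0.0591 and 0.0727), and 1431843_a_at was also lost without either AMN107-IFNg array (adjusted p = 0.0695 and 0.052).

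Between AMN107-IFNa and IFNa, Nfkbie was lower by -0.86 on 1458299_s_at and -0.72 on 1431843_a_at (limma adjusted p = 0.00177 and 0.00652). Without IFNa replicate 2 the differences were -0.70 and -0.46, and both calls were kept (adjusted p = 0.000642 and 0.00601). Both were lost when the fit held only the 4 arrays compared (adjusted p = 0.109 and 0.154).

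On the arrays without AMN107, no interferon response of a member over DMSO passed the threshold. On Nfkbie 1431843_a_at the difference was 0.47 with IFNa and 0.48 with IFNg over DMSO (log2, SE 0.15; limma adjusted p = 0.0588 and 0.0704), folds of 1.38 and 1.39. Without IFNa replicate 2 the IFNa difference was 0.20. This was below those of Relb (0.30), Tnfaip3 1450829_at (0.24) and 1433699_at (0.22), and Nfkbia 1449731_s_at (0.24) and 1448306_at (0.22). On AMN107 arrays the same differences were -0.08 and -0.08 (limma adjusted p = 1 and 0.996). The 2 comparisons with DMSO share the DMSO arrays, as the 2 with AMN107 share the AMN107 arrays.

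Whether the interferon response of Nfkbie 1431843_a_at depended on AMN107 was tested by the interactions, which were -0.55 ± 0.21 for IFNa and -0.56 ± 0.21 for IFNg (log2, SE; limma adjusted p = 0.201 and 0.274), so neither passed. On 1458299_s_at they were -0.21 and -0.07 (limma adjusted p = 0.491 and 0.933). Without IFNa replicate 2 the IFNa interaction was smaller on both probe sets, -0.28 on 1431843_a_at and -0.05 on 1458299_s_at. The spread that enters these tests is shared by the 12 arrays, the IFNa pair included. In a fit without the 2 IFNa arrays, an alternative chosen after the data were seen, the IFNg interaction on 1431843_a_at had an adjusted p of 0.00985, and the IFNg rise over DMSO passed on both Nfkbie probe sets (adjusted p = 0.00124 and 0.0135).

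**Figure D2:**
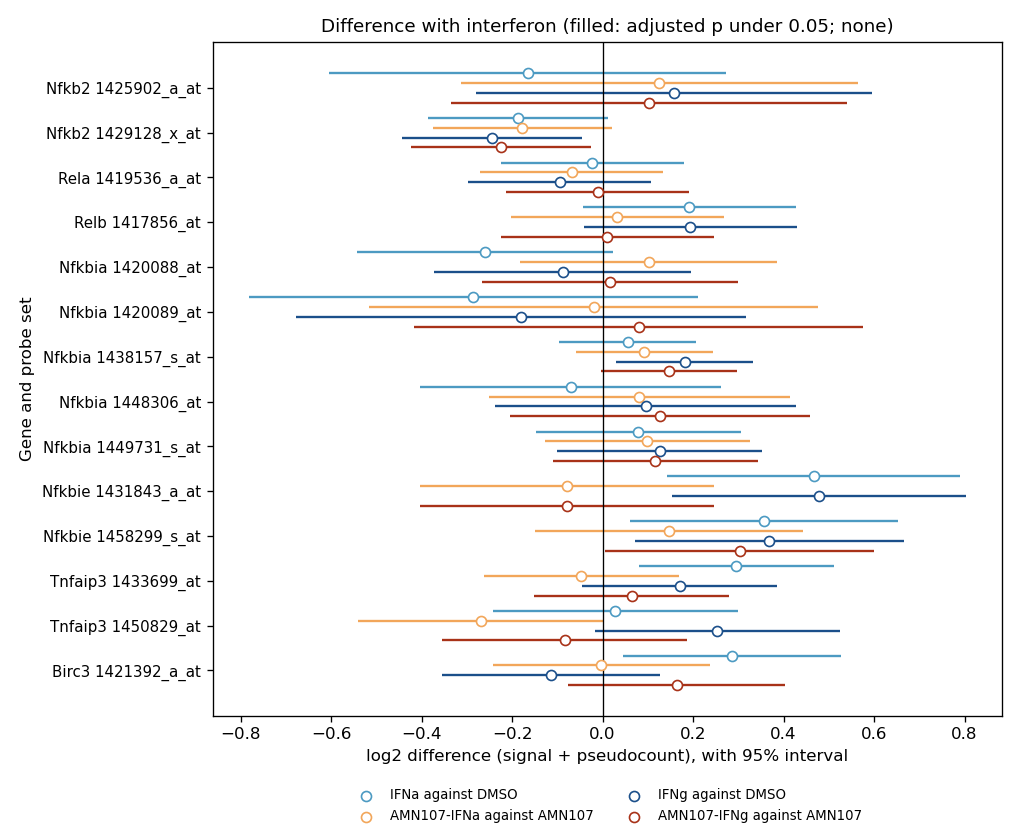
Log2 difference with interferon (x axis, signal + pseudocount) for the 14 tested member probe sets, with IFNa and IFNg against DMSO and under AMN107 against AMN107. Circles are estimates, bars 95% intervals, and open circles miss an adjusted p of 0.05. All circles are open, and the Nfkbie 1431843_a_at estimates are 0.47 and 0.48 without AMN107 and -0.08 and -0.08 with it.

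Tnfaip3 read 116 and 132 in DMSO, 146 and 162 with IFNa and 141 and 139.5 with IFNg on 1433699_at. With AMN107 it read 143 and 135, with AMN107-IFNa 139 and 129, and with AMN107-IFNg 144 and 147. Both IFNa arrays were above both DMSO arrays, by 0.30 ± 0.10 (log2, SE; limma adjusted p = 0.0644; 0.22 and adjusted p = 0.163 without IFNa replicate 2). The AMN107 and other arrays overlapped, with medians of 141 and 140.1. The other Tnfaip3 probe set, 1450829_at, was dim, between 17.3 and 27.2, and above the array median on 7 of 12 arrays.

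Birc3 read 132 and 138 in DMSO, 150.0 and 185 with IFNa and 130.0 and 118 with IFNg on 1421392_a_at. With AMN107 it read 94.0 and 90.2, with AMN107-IFNa 94.7 and 89.2, and with AMN107-IFNg 102 and 107. All 6 AMN107 arrays (median 94.4) were below all 6 others (median 135). Against DMSO, AMN107 lowered Birc3 by -0.51 ± 0.11 (log2, SE; limma adjusted p = 0.0063), a fold of 0.702 with a 95% interval of 0.594 to 0.829, and the call was lost without AMN107 replicate 2 (adjusted p = 0.0529).

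The Birc3 difference was -0.80 between AMN107-IFNa and IFNa (limma adjusted p = 0.000923) and -0.66 without IFNa replicate 2 (adjusted p = 0.00014). It was lost when only the 4 arrays compared were fitted (adjusted p = 0.111). Between AMN107-IFNg and IFNg it was -0.23 (limma adjusted p = 0.179), although no array of one group reached the other. Birc3 was also the only member called between the interferons: it was lower with IFNg than with IFNa by -0.40 (limma adjusted p = 0.0373). That call held in 7 of 22 alternatives, was lost on leaving out any array other than IFNa replicate 1, and had an adjusted p of 0.0694 with a difference of -0.26 without IFNa replicate 2.

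**Figure D3:**
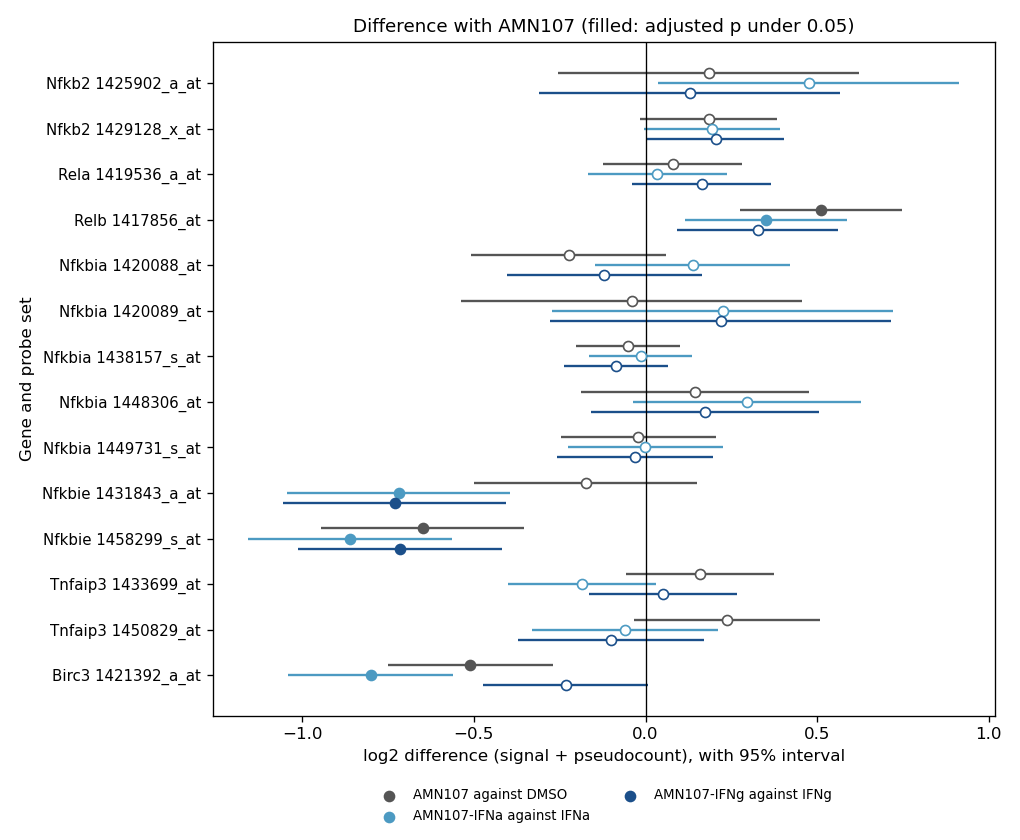
Log2 difference with AMN107 (x axis, signal + pseudocount) for the 14 tested member probe sets, alone (against DMSO) and with each interferon (against that interferon). Circles are estimates, bars 95% intervals, and filled circles have an adjusted p under 0.05. The filled circles are Relb on the right (0.51 and 0.35) and Nfkbie and Birc3 on the left (-0.51 to -0.86).

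Set against the whole array, the members did not stand out by number. Against DMSO, AMN107 called 3 of the 14 (21.4%; 1 higher, 2 lower), where 33.1% of all tested probe sets were called. AMN107-IFNa against IFNa called 4 (28.6%; 1 higher, 3 lower), where 24.1% of all were called, and AMN107-IFNg against IFNg called 2 (14.3%; both Nfkbie, lower), where 15.4% were. Without IFNa replicate 2 the member share for AMN107-IFNa against IFNa lay below the share of all probe sets instead of above it. The median absolute log2 difference of the members in these 3 comparisons was 0.179, 0.209 and 0.169, beside 0.236, 0.191 and 0.168 over all tested probe sets.

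Interferon alone called none of the 14 with limma. For IFNa against DMSO, 12% of all tested probe sets were called and 4 members had an unadjusted p under 0.05, and for IFNg against DMSO 8.99% were called and 4 members had such a p. Under AMN107, 0.119% of all tested probe sets were called for IFNa and 1.79% for IFNg, with 0 and 2 members at an unadjusted p under 0.05. The interactions called 0.152% for IFNa and 1.38% for IFNg, with 2 and 1 members at that p, and IFNg against IFNa called 14.1%, with Birc3 as the 1 member (7.14%). These 0 counts were not kept in every alternative: without IFNa replicate 1 alone, which leaves the array with the low 5′ signal to stand for IFNa, 8 members were called for IFNa against DMSO, where 54.3% of all tested probe sets were.

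In the fit without either IFNa array, 5 members were called for IFNg against DMSO, where 28.8% of all probe sets were, 5 for AMN107 against DMSO (52.3%), 5 for AMN107-IFNg against IFNg (34.6%) and 1 for the interaction of AMN107 with IFNg (13.1%). In that fit the IFNg calls included Nfkb2 1429128_x_at, lower (adjusted p = 0.0391), and Nfkbia 1438157_s_at, higher (0.0202). The IFNg difference went the other way on Nfkb2 1425902_a_at (0.16) and on Nfkbia 1420088_at and 1420089_at (-0.09 and -0.18). It was 0.095 and 0.13 on Nfkbia 1448306_at and 1449731_s_at. The AMN107 calls included Nfkbia 1420088_at, lower (0.00844), and Tnfaip3 1450829_at, higher (0.0355), beside Relb, Nfkbie and Birc3. Between AMN107-IFNg and IFNg, Relb (0.00906) and Nfkbia 1448306_at (0.0389) were higher and Birc3 (0.0327) was lower, beside both Nfkbie probe sets. The rise in the number of members called went with a rise in the share of all probe sets called.

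The genes whose log2 signal followed a called member most closely over the 12 arrays are given as a description, since the 12 arrays share their groups. For Relb they were Smox (Pearson r = 0.974), Copg2 (0.971) and Hexdc (0.969), among 12187 genes compared, with r of 0.971, 0.969 and 0.983 without IFNa replicate 2, which changes their order. For Nfkbie they were Vhl (0.976), Styk1 (0.965) and Hdac1 (0.965), with 0.969, 0.964 and 0.955 without that array. For Birc3 they were Pcyt1b (0.985), Timeless (0.978) and Virma (0.976), with 0.977, 0.964 and 0.959 without it. The signals of these genes also separated the 6 AMN107 arrays from the others, as with Hdac1 at 629 to 687 against 780.4 to 916.

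The wider pathway was described from 5 lists, with 1 probe set a gene, the brightest. List results that use the IFNa arrays rest on both IFNa replicates and are not given without IFNa replicate 2. When only the groups compared were fitted, AMN107-IFNa against IFNa called 0.238% of all probe sets. Of 10 other NF-kappaB subunits and inhibitors tested, AMN107 raised 1 and lowered 1 against DMSO, lowered 5 between AMN107-IFNa and IFNa, and lowered 2 between AMN107-IFNg and IFNg, beside 33.1%, 24.1% and 15.4% of all probe sets called. Tnip1, which assists Tnfaip3 as a brake on the pathway, went from 205 ± 14 in DMSO to 151 ± 1.1 with AMN107 (SD, n = 2), and its differences were -0.42, -0.58 and -0.56 in the 3 comparisons (limma adjusted p = 0.0105, 0.00304 and 0.00526). The first was lost without DMSO replicate 2 or either AMN107 array (adjusted p = 0.0742, 0.0613 and 0.0623) and the third without AMN107-IFNg replicate 2 (adjusted p = 0.0552).

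Bcl3, an atypical I-kappaB that acts in the nucleus, rose with IFNg from 34.9 ± 4.1 to 59.7 ± 3.4 (0.65, limma adjusted p = 0.00212). Nfkbiz, another nuclear I-kappaB, rose with IFNg by 0.96 (limma adjusted p = 0.00557) and with AMN107 by 0.63 (adjusted p = 0.0151). Leaving out DMSO replicate 2 (adjusted p = 0.058) or IFNg replicate 2 (0.0503) ended the first call, and the second was lost without DMSO replicate 2 (0.0998) or AMN107 replicate 2 (0.11).

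Of the 10 kinases and kinase partners tested, AMN107 raised 2 and lowered none against DMSO, and of the 15 adaptors and ubiquitin ligases it raised 3 and lowered 1, beside 33.1% of all probe sets called. Rnf31, the catalytic part of the linear ubiquitin ligase, went from 58.8 ± 10.8 in DMSO to 118 ± 0.1 with AMN107 (0.91, limma adjusted p = 0.00121). Sharpin, another subunit of that ligase, went from 181 ± 7.2 to 274 ± 3.3 (0.58, limma adjusted p = 0.00511), although its other probe set gave 0.15 (adjusted p = 0.292). Myd88 and Irak2, which carry signals from toll-like and interleukin receptors, rose with IFNg by 0.66 and 0.83 (limma adjusted p = 0.00113 and 0.00184).

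Of the 11 receptors and ligands tested, AMN107 raised 1, and IFNg raised 2 over DMSO, beside 33.1% and 8.99% of all probe sets called. Tlr3, a sensor of double-stranded RNA, went from 16.0 ± 3.8 in DMSO, below the array medians, to 41.8 ± 3.9 with IFNa, 55.8 ± 0.9 with IFNg and 111 ± 4.4 with AMN107-IFNg, and differed by 1.04 for IFNa and 1.39 for IFNg against DMSO (limma adjusted p = 0.000753 and 3.81e-05). Its other probe set gave 0.60 and 0.79 (limma adjusted p = 0.0357 and 0.00737). Cd40, a co-stimulatory receptor, was higher in AMN107-IFNg than in IFNg, at 155 ± 35 against 66.3 ± 2.8 (1.11, limma adjusted p = 0.00383), as it was on its other 2 probe sets (0.87 and 1.01).

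Of the 24 target genes tested, AMN107 raised 9 and lowered 3 against DMSO, so 50% were called beside 33.1% of all probe sets. The median difference of the list was 0.19 beside 0.03 over all. Among the brighter probe sets kept by a filter at the 75th percentile, 39.1% were called, with a median of 0.12. The list was chosen with earlier results of these data known and reads the brightest probe set of each gene, so its share is only a description. AMN107-IFNa against IFNa raised 7 and lowered 2 (24.1% of all called), with a list median of 0.144 beside -0.00053 over all, and AMN107-IFNg against IFNg raised 6 and lowered 1 (15.4% of all called), with 0.0014 beside 0.012. The interleukin gene Il6, at 6.64 ± 0.97 in DMSO and so below the array medians, read 28.9 ± 5.5 with AMN107 (1.29, limma adjusted p = 0.000457). Gch1, the first enzyme of tetrahydrobiopterin synthesis, went from 399 ± 17 to 971 ± 14 (1.26, limma adjusted p = 0.000693), and the chemokine Cxcl10 went from 957 ± 14 in DMSO to 3157 ± 2.3 with IFNg and from 1776 ± 225 with AMN107 to 5248 ± 159 with AMN107-IFNg (1.71 and 1.56, limma adjusted p = 8.14e-06 and 2.52e-05). Nfkbie and Birc3, which are known targets as well, were lower with AMN107. None of the 70 genes of the 5 lists was called in either interaction with limma.

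**Figure D4:**
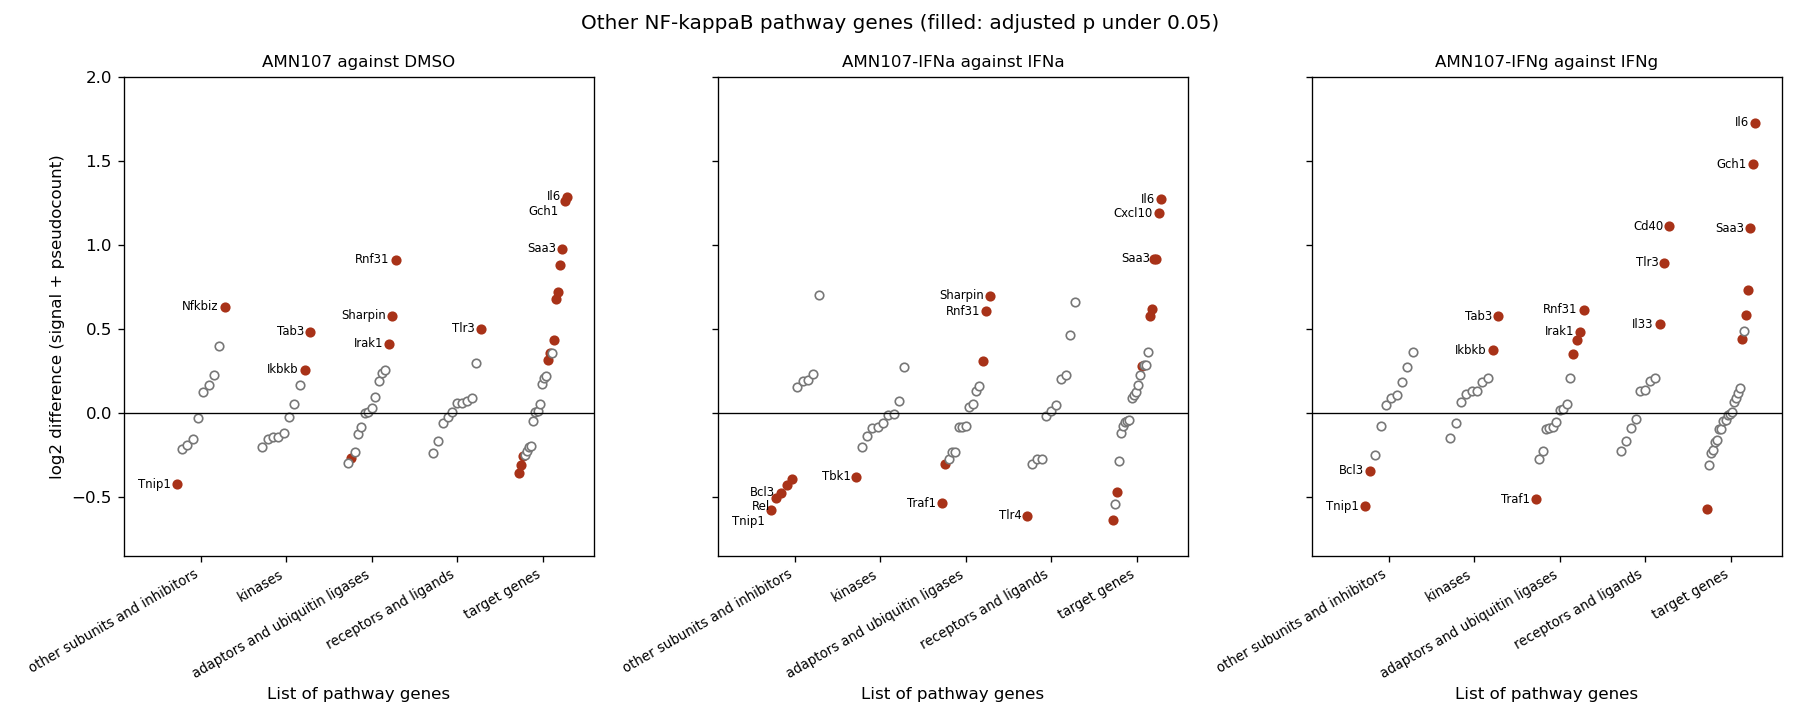
Log2 difference with AMN107 (y axis, signal + pseudocount) for the 70 tested genes of 5 NF-kappaB pathway lists, 1 panel per comparison. Each point is 1 gene, filled where its adjusted p was under 0.05, and the named genes are up to 3 per list with the largest called differences among genes whose arrays did not overlap. Il6 (1.29) and Gch1 (1.26) are the highest in the first panel, and Tnip1 (-0.42) is its lowest.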

How the data were processed

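RNA of 12 MEF samples was hybridised to Affymetrix arrays, and the table of the authors' processed values was used. It holds linear signal intensity values for 45101 probe sets, deposited by the authors. MAS5, Affymetrix's algorithm that makes 1 signal from the probes of a set, is named in the submitters' processing notes without a version, and the scaling target is not given in the sources used here. The trimmed mean of the arrays lay between 100.4 and 113.5, so the values were taken as already scaled. It was lowest on the DMSO arrays (100.4 and 101.3). The arrays with AMN107 had 108.4 to 110.8, and the IFNa and IFNg arrays 105 to 113.5. The part of this spread in the AMN107 differences was not tested beyond the alternative normalizations. Array number, not read depth, limits the precision.

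Genes were named from the platform annotation (34945 probe sets with 1 gene), and the 64 control probe sets were left out. Probe sets above the array median on at least 2 of 12 arrays (24353) were tested on log2(signal + 8.66), the mean 25th percentile, with limma 3.58.1 in R 4.3.3 (lmFit, contrasts, eBayes with trend), 1 mean per group and 10 contrasts. The fit was checked on simulated data for AMN107 against DMSO only, with 1 spread per probe set for all groups. That check does not cover the wider spread of the IFNa replicates. Intervals are at 95%. The p-values measure only the spread between these samples, which may be technical. The labels do not say whether a replicate number links groups, and the fit did not pair samples by it. Over 15 pairs of groups the correlation of deviations ran from -0.14 to 0.32, with 3 above 0.1 and 4 below -0.1. The 3 above 0.1 were IFNa with AMN107 (0.254), IFNa with AMN107-IFNa (0.234) and AMN107 with AMN107-IFNa (0.321). Whether the replicates of these groups share a source was not tested.

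The members and all lists were chosen with earlier results of these data known. All members are named, and of the lists up to 3 genes a list and comparison with the largest called difference and no overlap between arrays. Alternatives changed the pseudocount, filter, normalization, array weights, samples in the fit and probe set per gene. Nfkb1 was not analysed here, promoters came from RefSeq for 6 member genes, and Relb had none in that table.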

Additional observations from a re-analysis of the deposited data

How the results depend on the processing

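With 2 arrays a group, each call rests on a spread shared over the 12 arrays, and the IFNa replicates lie farthest apart (SD 0.435). No member call changed direction under any alternative with the pseudocount, the filter, quantile normalization or median centring, and a replicate block left 3, 4 and 2 members called in the 3 AMN107 comparisons and changed no count of member calls. Over all probe sets called by AMN107 against DMSO, 62.7% were higher, 46% after quantile normalization and 73.8% after median centring; the cause was not tested. Counts of members called that moved by more than 1.5 times were these. For IFNa against DMSO (0), quantile normalization gave 1 and median centring 3. For IFNg against DMSO (0), quantile normalization gave 2, a fit of only the groups compared 3, array weights 4 and leaving out both IFNa arrays 5. For AMN107 against DMSO (3), array weights and leaving out both IFNa arrays gave 5 each. For AMN107-IFNa against IFNa (4), only the groups compared gave 0. For AMN107-IFNg against IFNg (2), a filter at the 75th percentile gave 1, array weights 4 and leaving out both IFNa arrays 5. For the IFNg interaction (0), only the groups compared, array weights and leaving out both IFNa arrays gave 1 each. For IFNg against IFNa (1), no filter, quantile normalization, only the groups compared and array weights gave 0 each. Other counts in the 3 AMN107 comparisons moved by 1: AMN107 against DMSO gave 4 with only the groups compared, AMN107-IFNa against IFNa gave 3 with no filter, a filter at the 75th percentile, 1 probe set per gene and array weights, and AMN107-IFNg against IFNg gave 3 with quantile normalization, median centring and only the groups compared. The cause was not tested, except that fewer samples enter the fits of the groups compared. Leaving out 1 array in turn gave 0 to 8 for IFNa, 0 to 5 for IFNg, 1 to 5 for AMN107, 3 to 9 for AMN107-IFNa against IFNa, 0 to 5 for AMN107-IFNg against IFNg, 0 to 7 and 0 to 1 for the IFNa and IFNg interactions, 0 to 7 for IFNg against IFNa, and 0 for both interferon comparisons under AMN107. The highest counts came from leaving out an IFNa array. Without IFNa replicate 1, the shares of all probe sets called were 54.3%, 28.8%, 52.3%, 47.3%, 34.5%, 43.8%, 13.1% and 48% in that order, for the 8 comparisons whose count was not 0 throughout. Nfkbia 1420089_at between IFNg and IFNa ran from -0.34 without IFNa replicate 2 to 0.55 without IFNa replicate 1. Signs for IFNa against DMSO also turned when IFNa replicate 2 was left out. Examples are Nfkb2 1425902_a_at (-0.17 to 0.20) and Nfkbia 1420089_at (-0.29 to 0.16) and 1448306_at (-0.07 to 0.22).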
